A study of Homo sapiens with 2 samples.

Results

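The 10 genes described here write, erase or read N6-methyladenosine (m6A), a methyl mark on adenosines inside messenger RNA. They were taken by symbol, and all 10 were among the 60664 Ensembl genes counted in the files. They comprise 5 writers (METTL3, METTL14, WTAP, VIRMA, ZC3H13), 2 erasers (ALKBH5, FTO) and 3 readers (YTHDF1, YTHDF2, YTHDF3). The cells were HEK293T, an established human line derived from embryonic kidney cells and carrying the SV40 large T antigen. They were untreated and labelled as wild type, and they made up a single group of 2 RNA-seq libraries with no contrast. The study concerned the mapping of R-loops, and these libraries recorded its cells' transcripts. The sample sheet's cell line field for replicate 2 names HEK294T, while its title names HEK293T, and the title was followed. The labels do not say whether each library had its own culture, and the spread of the pair may therefore be technical.

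The m6A mark is laid down in the nucleus by a multi-subunit complex. METTL3 is the catalytic subunit, METTL14 its partner in a heterodimer that binds the RNA, and WTAP, VIRMA and ZC3H13 are regulatory subunits that place the complex in the nucleus and on its targets. ALKBH5 and FTO are iron-dependent oxygenases of the AlkB family that can remove the methyl group. The YTHDF proteins are cytoplasmic readers whose YTH domain binds the mark.

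Replicate 1 held 18011638 counts assigned to genes and replicate 2 18575058. Levels are given as CPM, counts scaled to the same assigned total in each library, and a gene with 0 counts could lie at up to 0.167 CPM in replicate 1 and 0.162 CPM in replicate 2. Of 6 genes fixed as markers of this line, HOXD11, SIX2, UCHL1, INA, VIM and KRT18, all 6 were detected, with a summed level of 1142 CPM in replicate 1 and 1012 CPM in replicate 2. Of 8 markers of differentiated kidney 1 was detected, LRP2, and the list summed to 3.11 and 4.15 CPM, with AQP2, SLC12A3 and UMOD at 0 counts in both libraries. Endothelial markers (0 of 5 detected) summed to 0.333 and 0.108 CPM, and fibroblast markers (1 of 4, LUM) to 2.61 and 2.05 CPM. HBB, a blood marker, had 0 counts in replicate 1 and 38 in replicate 2. CD3D, CD3E, ERG, TEK, COL1A2 and DCN had 0 counts in both libraries.

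Each library held all 10 m6A genes at 1 CPM or more, a level at which 65.9% of the 19890 protein-coding genes and 27.7% of all genes were detected in both. All 10 also reached 10 CPM in both, against 46.2% of protein-coding genes. Together they held 10766 counts in replicate 1, or 0.0598% of the library (exact 95% binomial interval 0.0586% to 0.0609%). In replicate 2 they held 9600 counts, or 0.0517% (0.0507% to 0.0527%). Their median level per length was 18.4 TPM, a unit that divides each count by the merged exon length before scaling. It was 20.2 TPM in replicate 1 and 15.4 TPM in replicate 2, beside 2.88 TPM for all protein-coding genes. Among protein-coding genes detected in both libraries the median was 8.52 TPM. Per length, FTO alone lay below the median of all protein-coding genes, at percentile 42.1, and YTHDF2 lay at percentile 91.9. By CPM FTO lay above that median, at percentile 59.7, with 15.9 CPM beside 8.61 CPM. In bulk RNA fewer expressing cells and less RNA per cell cannot be told apart. The levels spanned from 1.5 ± 0.126 TPM for FTO to 56.7 ± 13.0 TPM for YTHDF2 (SD, n = 2, as for every value after ± below).

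**Figure D1:**
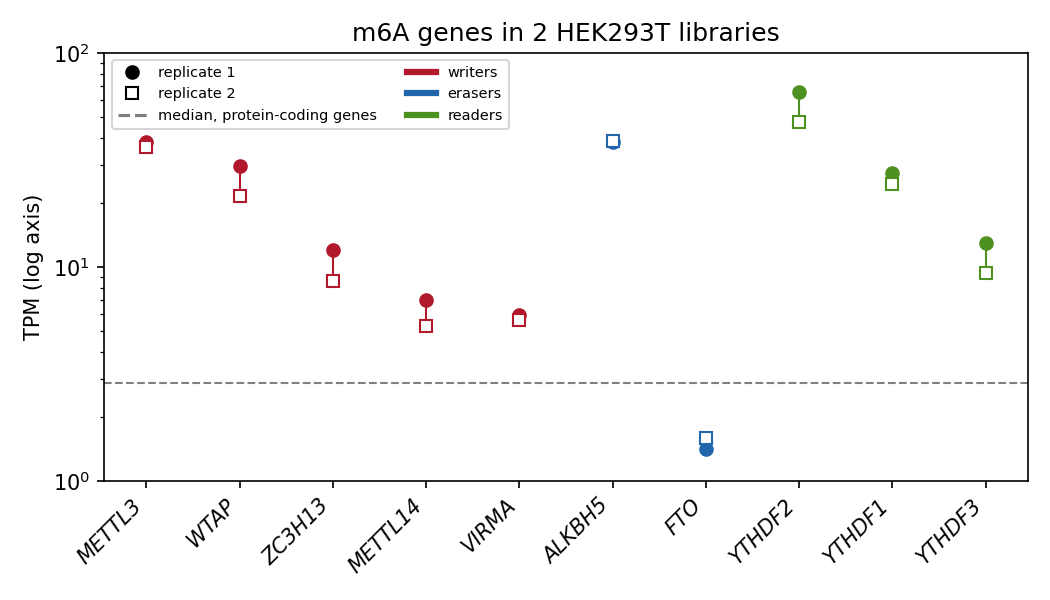
Level per exon length (TPM, log axis) of each m6A gene in replicate 1 (filled circles) and replicate 2 (open squares) of untreated HEK293T cells, coloured by role; a line joins the libraries and the dashed line is the median of protein-coding genes, 2.88 TPM. FTO, at 1.5 TPM on average, is the one gene below the dashed line, and YTHDF2, at 56.7 TPM, is highest.

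The writers differed widely in level. METTL3 stood highest and METTL14 and VIRMA lowest, and the list's median was 10.4 TPM (12.1 in replicate 1 and 8.64 in replicate 2). METTL3 (ENSG00000165819), on chromosome 14 from 21498133 to 21511342 on the minus strand (GRCh38, as for all positions here), was assigned 1967 counts in replicate 1 and 1994 in replicate 2. Its level was 38.5 and 36.2 TPM, or 37.3 ± 1.60, at percentile 88.2 of the protein-coding genes. The libraries were within 0.1 log2 of each other for this gene, with a ratio of replicate 1 over replicate 2 of -0.01 log2.

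METTL14 (ENSG00000145388), on chromosome 4 from 118685392 to 118715433, had 420 and 342 counts, which gave 7.04 and 5.32 TPM. METTL3 was above its heterodimer partner 5.46-fold in replicate 1 and 6.80-fold in replicate 2 per length, and the libraries' ranges did not overlap. By CPM the ratio was 4.68-fold and 5.83-fold, and per length of the longest coding transcript 15.5-fold and 19.3-fold. That spread follows from the lengths themselves, since the merged exons of METTL3 cover 5861 bases and its longest coding transcript 2015, whereas for METTL14 these are 6838 and 6669 bases.

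WTAP (ENSG00000146457), the adaptor that brings the heterodimer to nuclear speckles, lies on chromosome 6 from 159725585 to 159756319. It had 1665 counts and 29.8 TPM in replicate 1, and 1288 counts and 21.4 TPM in replicate 2. ZC3H13 (ENSG00000123200), a zinc finger protein that holds the complex in the nucleus, lies on chromosome 13 from 45954465 to 46052759 and had 1080 and 833 counts, or 12.1 and 8.64 TPM. Both genes were higher in replicate 1.

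The sequences upstream of the writer genes METTL3, METTL14 and ZC3H13 are given because each holds the letters CCGGAAG or their reverse complement. These letters are a motif of the type bound by ETS family factors, and only exact matches were marked. They are the 250 bases before the RefSeq start, on GRCh38.p14, in lower case with each motif found in capitals: METTL3 at chr14:21511341-21511590 (minus strand), METTL14 at chr4:118685142-118685391 (plus strand) and ZC3H13 at chr13:46052747-46052996 (minus strand).
METTL3: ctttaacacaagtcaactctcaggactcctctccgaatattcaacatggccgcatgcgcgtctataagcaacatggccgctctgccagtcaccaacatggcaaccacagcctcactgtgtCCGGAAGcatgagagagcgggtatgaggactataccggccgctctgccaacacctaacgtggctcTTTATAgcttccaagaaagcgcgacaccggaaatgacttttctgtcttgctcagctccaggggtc
METTL14: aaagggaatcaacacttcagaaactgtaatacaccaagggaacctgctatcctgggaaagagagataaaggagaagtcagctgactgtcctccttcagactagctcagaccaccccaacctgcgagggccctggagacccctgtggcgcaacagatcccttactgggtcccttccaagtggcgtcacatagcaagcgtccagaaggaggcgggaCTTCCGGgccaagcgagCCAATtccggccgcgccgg
ZC3H13: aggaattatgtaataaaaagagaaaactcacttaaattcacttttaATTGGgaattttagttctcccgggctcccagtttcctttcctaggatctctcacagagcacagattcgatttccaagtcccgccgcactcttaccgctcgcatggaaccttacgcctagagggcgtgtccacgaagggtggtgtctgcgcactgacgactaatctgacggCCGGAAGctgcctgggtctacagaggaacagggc
The RefSeq table held 10 such windows for 8 of the m6A genes. Both strands were searched for CCGGAAG, for the GC box letters GGGCGG, for the letters CCAAT, for the TATA box letters TATAAA and for the ZNF143-type motif, and the matches in the printed windows do not overlap. CCGGAAG was in 8.52% of all 35116 windows of the same length, CCAAT in 32.0%, TATAAA in 10.7%, GGGCGG in 42.6% and the ZNF143-type motif in 0.891%. METTL14 and ZC3H13 also hold CCAAT, as do 1 window each of WTAP and YTHDF2, and METTL3 holds TATAAA. ALKBH5, WTAP, YTHDF1 and YTHDF2 windows hold GGGCGG, and the FTO window holds the ZNF143-type motif. The 10 windows had 11 to 40 CpG dinucleotides each, where the median of all windows was 11. These matches describe letters and show no binding, and the 3 windows were chosen after the motif search.

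VIRMA (ENSG00000164944), the large scaffold subunit also known in the fly as virilizer, lies on chromosome 8 from 94487689 to 94553529. It had 559 and 571 counts, or 5.95 and 5.64 TPM, nearly the same in both libraries. VIRMA stood below METTL3 6.47-fold in replicate 1 and 6.42-fold in replicate 2 per merged exon length. By CPM the ratio was 3.52-fold and 3.49-fold, and with the longest coding transcript 11.4-fold and 11.3-fold.

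Per merged exon length, the erasers were the most unequal pair within a role. ALKBH5 (ENSG00000091542), which demethylates nuclear messenger RNA, lies on chromosome 17 from 18183078 to 18209954. It had 1208 counts and 38.5 TPM in replicate 1, and 1308 counts and 38.7 TPM in replicate 2. Its spread of ± 0.146 TPM was among the narrowest of the members on that scale, but not by CPM. There ALKBH5 had 67.1 and 70.4 CPM, a spread of ± 2.37 CPM. FTO (ENSG00000140718), which acts on m6A and on the related mark beside the cap, lies on chromosome 16 from 53701692 to 54158512. It had 263 and 319 counts, or 1.41 and 1.59 TPM. ALKBH5 was above FTO 27.3-fold in replicate 1 and 24.3-fold in replicate 2 per length. By CPM the ratio was 4.59-fold and 4.10-fold, and with the longest coding transcript 19.7-fold and 17.6-fold. FTO's merged exons cover 21379 bases, the longest of the 10 genes, and those of ALKBH5 3601 bases. FTO was lowest on each of these 3 scales.

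The readers came in the order YTHDF2, YTHDF1 and YTHDF3, with no overlap between their libraries' ranges. YTHDF2 (ENSG00000198492), which draws the CCR4-NOT deadenylase to marked RNAs and speeds their decay, lies on chromosome 1 from 28736621 to 28769775. It had 2142 counts and 65.9 TPM in replicate 1, and 1665 counts and 47.5 TPM in replicate 2, the highest level of the 10 genes in both. YTHDF1 (ENSG00000149658), reported to favour translation of marked RNAs, lies on chromosome 20 from 63195429 to 63216139. It had 766 and 735 counts, or 27.4 and 24.4 TPM.

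The readers are paralogues, so their coding sequences were compared to see how far reads could be told apart. The longest GENCODE 29 coding sequences of YTHDF2 and YTHDF1 were 69.8% identical over 1653 aligned bases, those of YTHDF2 and YTHDF3 72.3% and those of YTHDF1 and YTHDF3 70.9%. The longest run shared by YTHDF2 and YTHDF1 was 20 bases, printed in capitals with 12 bases on each side because it is the longest identical stretch of these coding sequences. With its flanks it lies at chr1:28743504-28743547 (plus strand) in exon 5 of 6 of the YTHDF2 transcript and at chr20:63202726-63202769 (minus strand) in exon 4 of 5 of the YTHDF1 transcript, both in coding sequence on GRCh38.
YTHDF2: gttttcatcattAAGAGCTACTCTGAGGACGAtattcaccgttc
YTHDF1: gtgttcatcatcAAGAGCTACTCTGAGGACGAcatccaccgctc

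YTHDF3 (ENSG00000185728), reported to act with both paralogues, lies on chromosome 8 from 63168553 to 63212786 and had 696 and 545 counts, or 12.9 and 9.41 TPM. YTHDF2 was above YTHDF1 2.40-fold and 1.95-fold, and above YTHDF3 5.09-fold and 5.05-fold, in replicates 1 and 2. YTHDF1 was above YTHDF3 2.12-fold and 2.59-fold. By CPM that last ratio was 1.10-fold and 1.35-fold, and with the longest coding transcript 1.73-fold and 2.12-fold. The order of the readers was also YTHDF2, YTHDF1 and YTHDF3 by CPM and with the longest coding transcript.

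No stretch of 50 bases of YTHDF1 transcripts occurred in a transcript of another gene, on either strand. For YTHDF3 0.0928% of such stretches did, and for YTHDF2 8.72%, all of them in the pseudogene YTHDF2P1. That pseudogene had 1 count in replicate 1 and 0 in replicate 2, and YTHDF1P1, YTHDF3P1 and FTOP1 had 0 in both. The heterodimer partners METTL3 and METTL14 were 60.7% identical over 1303 aligned coding bases, with no shared run above 12 bases.

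Some members share exonic bases with a neighbour on the opposite strand. Of the 10 genes 5 share exonic bases with another gene, at most 9.91% of their exons. ALKBH5 shares 357 bases with ENSG00000266677, which had 96 and 165 counts. WTAP shares 437 bases, or 6.81%, with SOD2, a mitochondrial superoxide dismutase gene with 2527 and 2707 counts. METTL3 shares 388 bases, or 6.62%, with TOX4, which had 1349 and 1306 counts. ZC3H13 shares 263 bases with CPB2-AS1 (54 and 43 counts), and FTO shares 180 bases with ENSG00000280454, which had 0 counts. The strand setting of the counting is not given in the sources used here, and without it reads of either gene in these stretches cannot be told apart. The pseudogene WTAPP1 had 12 and 13 counts. Of the 50-base stretches in WTAP transcripts 7.88% occur in transcripts of another gene, as do 9.82% in ALKBH5, 4.93% in METTL3, 2.89% in FTO, 0.899% in METTL14, 0.335% in VIRMA and 0% in ZC3H13.

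Placed in order by TPM, the genes ran YTHDF2, ALKBH5, METTL3, YTHDF1, WTAP, YTHDF3, ZC3H13, METTL14, VIRMA and FTO. Of the 9 neighbouring pairs in that order, 5 had libraries whose ranges did not overlap. The neighbours that did not differ beyond their spread were ALKBH5 and METTL3, YTHDF1 and WTAP, YTHDF3 and ZC3H13, and METTL14 and VIRMA. Of all 45 pairs of the genes, 41 had ranges that did not overlap. With 2 libraries an exact permutation test cannot reach 0.05, so no p-value is given. By CPM METTL3 led (108 ± 1.31 CPM), followed by YTHDF2 (104 ± 20.7 CPM) and WTAP (80.9 ± 16.3 CPM), and the libraries' ranges of METTL3 and YTHDF2 overlapped. With the longest coding transcript METTL3 was again first, at 74.3 ± 2.78 TPM, above YTHDF2 at 49.4 ± 11.03 TPM. METTL14 and VIRMA changed places on both of these scales.

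**Figure D2:**
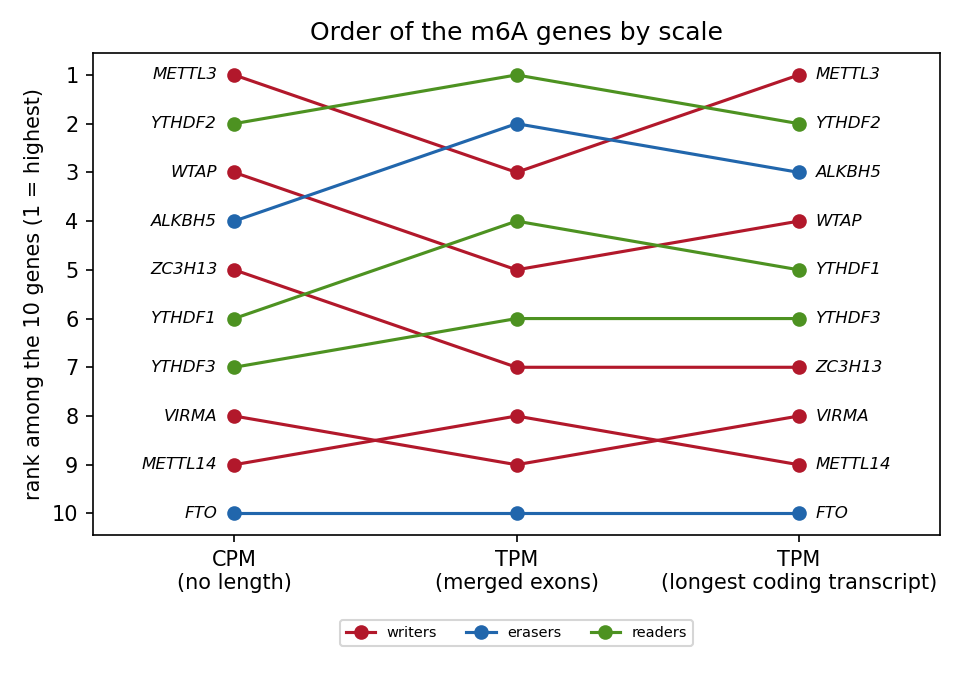
Rank of the 10 m6A genes (1 is the highest) by mean CPM, by TPM over merged exons and by TPM over the longest coding transcript, coloured by role. METTL3 has rank 1 by CPM and by the longest coding transcript and rank 3 by merged exons, while FTO has rank 10 on all 3 scales.

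Between the libraries, 5 of the m6A genes were higher in replicate 1 beyond counting error, FTO was lower in replicate 1 and the other 4 were not separated from 0. No member passed 0.5 log2 in either direction, while of the 14704 genes averaging at least 50 counts 8.84% passed it upward in replicate 1 and 2.86% downward. The ratios, as log2 of replicate 1 over replicate 2, ran from -0.26 for FTO to 0.39 for ZC3H13. An exact 95% interval for the counting error alone lay above 0 for 5 of the 10 members, against 24.6% of all genes tested, and below 0 for 1, against 22.4%. The 5 were ZC3H13 (0.39, interval 0.26 to 0.52), WTAP (0.38, 0.28 to 0.49), YTHDF2 (0.38, 0.28 to 0.47), YTHDF3 (0.37, 0.20 to 0.53) and METTL14 (0.31, 0.10 to 0.52). The 1 below 0 was FTO (-0.26, -0.51 to -0.03). METTL3 (-0.01), VIRMA (-0.02), YTHDF1 (0.07) and ALKBH5 (-0.10) had intervals that spanned 0. Each ratio sets 1 library against 1, without replication.

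**Figure D3:**
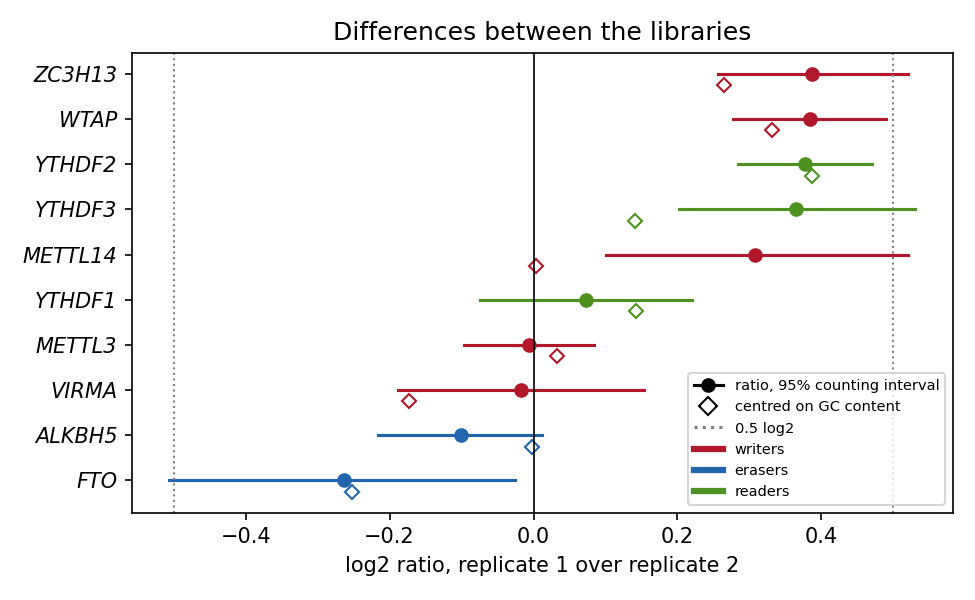
Log2 ratio of replicate 1 over replicate 2 for each m6A gene (filled circles, with exact 95% intervals for counting error) and the same ratio after subtracting the median of genes of like GC content (open diamonds); dotted lines mark 0.5 log2. ZC3H13, WTAP, YTHDF2, YTHDF3 and METTL14 lie between 0.31 and 0.39, and the other 5 between -0.26 and 0.07.

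The ratio between the libraries moved with base composition over all genes. In the 20 classes of transcript GC content, its median was 0.44 log2 in the class of lowest GC content and lay between -0.13 and -0.07 in the 9 classes above 50.9%. YTHDF3 (38.8% GC), METTL14 (38.4%), VIRMA (40.7%), ZC3H13 (41.6%) and WTAP (44.2%) have the lowest GC content of the members, and of these VIRMA alone was not higher in replicate 1. After subtracting the median of its class, METTL14 stood at 0.00 log2, YTHDF3 at 0.14, ZC3H13 at 0.26 and WTAP at 0.33. YTHDF2, at 47.5% GC, stood at 0.39 log2 after this step and 0.38 before it. VIRMA moved to -0.17, FTO (46.5% GC) to -0.25, YTHDF1 (51.9%) to 0.14, METTL3 (49.9%) to 0.03 and ALKBH5 (54.9%) to 0.00. The part of base composition in these differences was not tested.

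**Figure D4:**
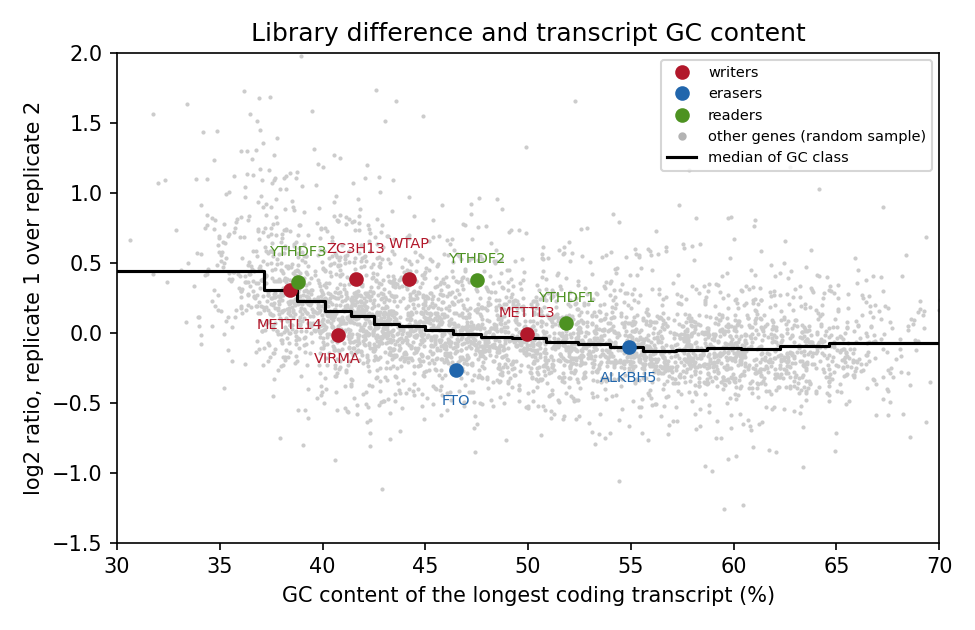
GC content of the longest coding transcript (%) against the log2 ratio of replicate 1 over replicate 2; coloured points are the m6A genes, grey points a random sample of other genes averaging at least 50 counts, and the stepped line the median of each of 20 GC classes. The line falls from 0.44 at the lowest GC content, METTL14 lies on it at 0.31 and YTHDF2 above it at 0.38.

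The wider lists cover the m6A pathway and related genes, among them enzymes of other RNA modifications. Of their 53 genes in 8 lists, 52 were detected, beside 65.9% of protein-coding genes and 27.7% of all genes. The exception was MAT1A, the S-adenosylmethionine synthetase of liver, with 2 and 9 counts. The writer complex's further partners RBM15B (21.2 ± 0.857 TPM) and RBM15 (11.5 ± 0.287), RNA-binding adaptors, and CBLL1 (4.73 ± 1.99), the ring finger subunit, had a median of 11.5 TPM beside 10.4 for the 5 writers. On the other scales the partners' median was below that of the writers. By CPM the medians were 26.6 and 52.4, and with the longest coding transcript 8.67 and 9.05 TPM. RBM15 had 478 and 497 counts and RBM15B 1190 and 1357. CBLL1 had 280 counts in replicate 1 and 163 in replicate 2, a ratio of 0.79 log2.

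The list of other N6-adenosine methyltransferases, with the activator TRMT112, ranged from 3.13 to 747 TPM. All of it lay above the median of protein-coding genes, 2.88 TPM. TRMT112, the small activator of METTL5 and other methyltransferases, had 747 ± 59.0 TPM and METTL5, which methylates 18S ribosomal RNA, 149 ± 31.6 TPM. Of the exonic bases of TRMT112, 25.8% also belong to other genes. PCIF1, which methylates the cap-adjacent adenosine, had 14.4 ± 0.530 TPM. METTL16, which methylates the U6 small nuclear RNA and hairpins in the MAT2A messenger, had 5.15 ± 0.392 TPM, close to METTL14 and VIRMA. METTL4 (4.35 ± 0.924 TPM) and ZCCHC4 (3.13 ± 0.5003), the methyltransferase of 28S ribosomal RNA, were lowest.

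The YTHDC readers stood below YTHDF2. YTHDC1, the nuclear reader, had 15.4 ± 1.82 TPM, with 1023 and 932 counts. YTHDC2, which also carries a helicase domain, had 5.76 ± 2.32 TPM and 697 counts in replicate 1 against 418 in replicate 2, a ratio of 0.75 log2. Among the 5 genes of the YTH family the order by TPM was thus YTHDF2, YTHDF1, YTHDC1, YTHDF3 and YTHDC2. It was the same with the longest coding transcript, but by CPM YTHDC1 (53.5) was above YTHDF1 (41.0). Per merged exon length, the other proteins reported to bind marked RNA were led by the nuclear ribonucleoproteins HNRNPC (237 ± 26.8 TPM), HNRNPA2B1 (157 ± 18.9) and RBMX (103 ± 12.6). On the other scales HNRNPA2B1 was above HNRNPC, at 978 against 854 CPM and 369 against 263 TPM with the longest coding transcript. PRRC2A had 23.6 ± 2.504 TPM and the RNA-stabilising protein gene ELAVL1 21.5 ± 3.001. IGF2BP1 (9.05 ± 0.304 TPM), IGF2BP3 (7.62 ± 2.33) and IGF2BP2 (7.55 ± 0.996), oncofetal RNA-binding proteins, and FMR1 (7.53 ± 5.97) were lowest.

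In the wider lists, 52 genes averaged at least 50 counts. Of these, 4 passed 0.5 log2 upward in replicate 1 and 0 downward, beside the 8.84% and 2.86% of all genes given above. They were FMR1 (1.73 log2, with 917 counts in replicate 1 and 278 in replicate 2), CBLL1, YTHDC2 and IGF2BP3 (0.54). After centring on GC content, IGF2BP3 stood at 0.38 log2 and CNOT2 at -0.52, so that 3 passed upward and 1 downward. Counting intervals lay above 0 for 20 of the 52 genes and below 0 for 14, against 24.6% and 22.4% of all genes tested.

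The AlkB family held 7 further genes, all detected, and per length FTO was the lowest of the whole family. By CPM, ALKBH8 (11.7) and ALKBH1 (15.5) lay below FTO (15.9). ALKBH7, a mitochondrial member, led with 119 ± 5.62 TPM, followed by ALKBH2 (40.7 ± 1.11), a DNA repair enzyme, ALKBH5 (38.6 ± 0.146), ALKBH4 (29.5 ± 4.64) and ALKBH3 (24.9 ± 1.71). ALKBH6 (16.3 ± 2.15 TPM), ALKBH1 (11.01 ± 0.0289) and ALKBH8 (5.27 ± 1.13), a transfer RNA methyltransferase, followed. Exons of other genes cover 25.6% of the exonic bases of ALKBH4 and 25.1% of those of ALKBH6.

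Genes that supply the methyl group were high apart from MAT1A. MAT2A, the S-adenosylmethionine synthetase outside liver, had 133 ± 1.84 TPM, AHCY, which clears the S-adenosylhomocysteine left after methyl transfer, 118 ± 10.02 TPM, and MAT2B, the regulatory subunit of MAT2A, 18.4 ± 4.06 TPM.

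The 10 CCR4-NOT genes, the deadenylase that YTHDF2 recruits, were all detected at a median of 14.7 TPM. CNOT11 (38.3 ± 3.34 TPM), CNOT8 (24.3 ± 1.87), a catalytic subunit, and CNOT1 (20.5 ± 0.543), the scaffold that YTHDF2 binds, were highest. CNOT6L (3.26 ± 0.529 TPM), CNOT2 (5.81 ± 0.0367) and CNOT3 (10.1 ± 0.444) were lowest. These ranks are per merged exon length. By CPM CNOT1 led with 110, and CNOT2 (40.2) was above CNOT3 (34.1) and CNOT6 (33.8). With the longest coding transcript CNOT2 had 11.7 TPM, above CNOT3 (10.8) and CNOT6 (7.41). Enzymes of other RNA modifications, 12 genes all detected, had a median of 17.6 TPM, near the 18.4 TPM of the m6A genes. DKC1, the pseudouridine synthase, led with 87.1 ± 4.99 TPM, followed by TRMT61A (24.5 ± 2.43), which makes N1-methyladenosine with TRMT6, and NSUN2 (23.8 ± 0.156), a cytosine methyltransferase. By CPM ADAR (104), PUS1 (65.3) and NSUN2 (64.9) were above TRMT61A (39.1). With the longest coding transcript NSUN2 had 27.1 TPM and TRMT61A 16.7 TPM. ADARB1 (2.71 ± 0.197 TPM), an adenosine deaminase, PUS7 (8.57 ± 0.977) and METTL1 (14.3 ± 1.69), which makes N7-methylguanosine, were lowest.

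**Figure D5:**
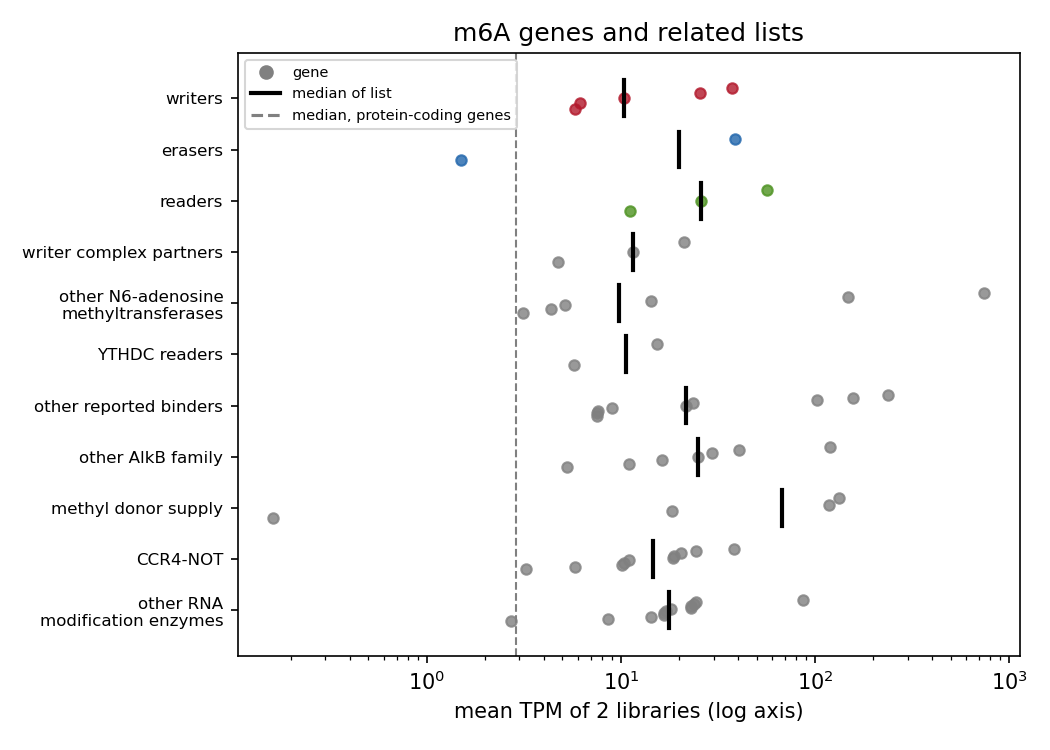
Mean TPM (log axis) of each gene of the m6A writers, erasers and readers and of 8 related lists; points are genes, black bars the list medians and the dashed line the median of protein-coding genes, 2.88 TPM. The members span 1.5 to 56.7 TPM, and MAT1A, in the methyl donor list, lies far to the left at 0.162 TPM.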

How the data were processed

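RNA was taken from untreated HEK293T cells and reverse-transcribed from an oligo(dT) primer, and the sheared cDNA was built into libraries, per the labels' protocols. The authors deposited raw counts per Ensembl gene, with 1 library in each file. The submitters' processing notes list featureCounts 2.0.3, Trim Galore 0.6.7 and bcl2fastq 2.17, and the build GRCh38. For the aligner, and for strand and overlap handling in the counting, settings were not given in the sources used here. Deposited exon lengths and coordinates, other columns of the authors' files, merge all annotated exons of a gene.

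Symbols matched 60463 of 60664 IDs. GENCODE 29, of the same build and holding 58396 of the IDs, gave transcript lengths, GC content and coding sequences, and RefSeq (GRCh38.p14) gave promoter windows. CPM and TPM were computed from the deposited counts without normalisation between libraries. Ratios of replicate 1 over replicate 2 were scaled with TMM factors of 1.01 and 0.989 from edgeR 4.0.16 (R 4.3.3), adding a prior count of 2, and DESeq2 1.42.0 size factors were an alternative. Exon overlap was computed with bedtools 2.31.1. The ratio step was checked on simulated counts. Intervals are exact Clopper-Pearson at 95%, a count of 0 was read as allowing 3 counts, and both cover counting error alone. No molecular identifiers were used to count molecules, so the intervals are for counts of reads and not of molecules. With a single group in the labels, groups could not be compared.

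Named genes were the 10 members, every gene of lists with 9 or fewer genes, the 3 highest and 3 lowest of longer lists, and overlapping genes and pseudogenes. No gene was named for likeness of pattern, since 2 libraries of 1 group give none. The members and lists were chosen with earlier results of these data known. The summed level of the blood markers is not reported here.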

Additional observations from a re-analysis of the deposited data

How the results depend on the processing

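All 10 m6A genes were detected also at 10 CPM, at 1 TPM and in either library alone. In the wider lists 50 of 53 genes reached 10 CPM in both libraries, against 46.2% of protein-coding genes. At 1 TPM or in either library alone 52 were detected. The median of the members, 18.4 TPM, became 13.1 TPM with longest coding transcripts in place of merged exons, 28.2 TPM with protein-coding genes alone in the total and 46.7 CPM without length, which is another unit. It ranged from 15.4 to 20.2 TPM when either library was left out. Of 45 pairs of members, 41 had the same order with the longest coding transcript, 38 by CPM and 43 to 44 in 1 library alone. The count of members past 0.5 log2 was 0 in each direction under the 7 alternatives run for scaling, prior count, count filter, GC content and fold. Over all genes, 1300 passed it upward in replicate 1 and 420 downward, against 2197 and 1254 with a mean count of 10 or more, 6086 and 5438 with no filter, 906 and 422 after centring on GC content and 282 and 21 at 1 log2. Of the wider genes 4 passed it upward and 0 downward, with 3 and 1 after centring on GC content, 4 and 1 with no filter, where MAT1A passed, and 1 and 0 at 1 log2. The settings for the wider lists were chosen after seeing the data. No paired analysis was possible because the labels give 1 group. Counting error is largest for FTO, at 263 and 319 counts.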
